A study of Mus musculus with 9 samples.

Results

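Interferon-stimulated genes and genes that sense foreign or misplaced nucleic acid were examined in RNA-Seq counts of mouse embryonic fibroblasts (MEFs). The list holds 51 genes chosen by function: type I interferon response genes and cytosolic or endosomal sensors of RNA and DNA with their adaptors. All 51 symbols were found among the 24341 genes of the count tables. They comprised 8 sensors and adaptors, 5 transcription factors, 3 enzymes that remove or edit nucleic acid, 14 IFIT, OAS, MX and other antiviral effectors, 4 membrane restriction factors, 7 ubiquitin-like modifier, TRIM and PARP genes, 7 interferon-inducible GTPases and 3 other genes. The study set out to learn how the DNA damage kinase Atm and the deacylase Sirt6 bear on ageing and metabolism, and sequenced mRNA from 3 WT, 3 Atm-/- and 3 Sirt6-/- samples of MEFs. The labels give C57BL/6 as the strain of all 9 samples and DMEM with fetal bovine serum as the medium. No interferon, virus or drug treatment of the sequenced cells is named. The labels also name P53-/- and Atm-/-P53-/- mice among the sources of the MEFs, without tying a sample to them. The study's methods list immortalized Atm-/-;p53-/- MEFs from one laboratory and Sirt6-/- MEFs from another beside primary MEFs of its own making, and do not say which of them were sequenced. Its results name the sequenced cells as Atm-/- MEFs and take up a p53 null background for a later metabolite measurement. Genotype cannot therefore be told apart from cell line, laboratory of origin or p53 status. No source says that the 3 samples of a genotype were separate cultures or embryos, so p-values measure only the spread between these samples, which may be technical.

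Cells detect double-stranded RNA through the helicases Mda5 (Ifih1) and Rig-I (Ddx58) and the endosomal receptor Tlr3, and detect DNA in the cytosol through cGAS (Mb21d1), whose product activates the adaptor Sting (Tmem173). These sensors activate kinases and IRF transcription factors that switch on interferon genes. Secreted type I interferon binds the Ifnar1 and Ifnar2 receptor chains, and the kinases Jak1 and Tyk2 then act on STAT proteins such as Stat2, which with Irf9 bind interferon-stimulated response elements at the promoters of antiviral genes.

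Between 32187040 and 33837949 reads were counted per sample, so 3 reads correspond to 0.0887 to 0.0932 counts scaled to library size (CPM). No pair of samples of the same genotype was identical. Atm itself had 1536, 1617 and 1627 reads in WT and 3768, 3564 and 3443 in the libraries labelled Atm-/- (log2 fold change 1.04, standard error 0.06). A count over the whole gene cannot show a change limited to some exons, so it does not check this label, and "Atm-/-" below means the libraries so labelled. Sirt6 fell from 487, 402 and 472 reads in WT to 4, 5 and 7 in Sirt6-/-. Trp53, which encodes p53, had 7108, 7102 and 6563 reads in WT, 806, 946 and 928 in Atm-/-, and 9081, 9127 and 9218 in Sirt6-/-. The summed level of the fibroblast markers was 18415 to 21929 normalized CPM in WT, 5511 to 5647 in Atm-/- and 15046 to 15546 in Sirt6-/-. Of these markers, Lum had at most 10 reads in any sample, and Thy1 averaged 24.4 CPM in WT, 87.3 in Atm-/- and 0.47 in Sirt6-/-. Summed epithelial markers were higher in Atm-/- (86.3 to 93.4 CPM, 5 of 5 at 1 CPM or more) than in WT (20.3 to 23.5) or Sirt6-/- (18.4 to 21.3). The 5 endothelial markers summed to 3.11 to 5.15 CPM in WT, 9.81 to 12.5 in Atm-/- and 0.649 to 0.990 in Sirt6-/-. Tie1 had 0 reads in all 9 samples. The 8 leukocyte markers found summed to between 20.8 and 27.3 CPM in every genotype, and their defining marker Ptprc had at most 6 reads in any sample. The part of these differences in the results was not tested, and in bulk RNA a lower number of cells of a type cannot be told apart from less RNA per cell.

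The levels of the 51 genes spanned a wide range. On the deposited RPKM scale, which divides by transcript length, the membrane proteins Ifitm2 and Ifitm3, which block virus entry, were the most abundant members in all 3 genotypes. In WT they had 124 ± 5.20 and 121 ± 2.30 RPKM (mean ± SD, n = 3), followed by Bst2 (tetherin, which holds budding virions at the cell surface) at 36.9 ± 5.84, Samhd1 at 32.5 ± 1.79 and Irf1 at 20.6 ± 0.708. At the other end, 29 members were below 1 RPKM in WT, against 21 in Atm-/- and 21 in Sirt6-/-. The shares of all genes below 1 RPKM are not given, so these counts have no background here. The median member was a different gene in each genotype: Irf7 at 0.332 RPKM in WT, Xaf1 at 1.73 in Atm-/- and Tlr3 at 2.72 in Sirt6-/-. These medians therefore do not measure a change of the members between genotypes.

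**Figure D1:**
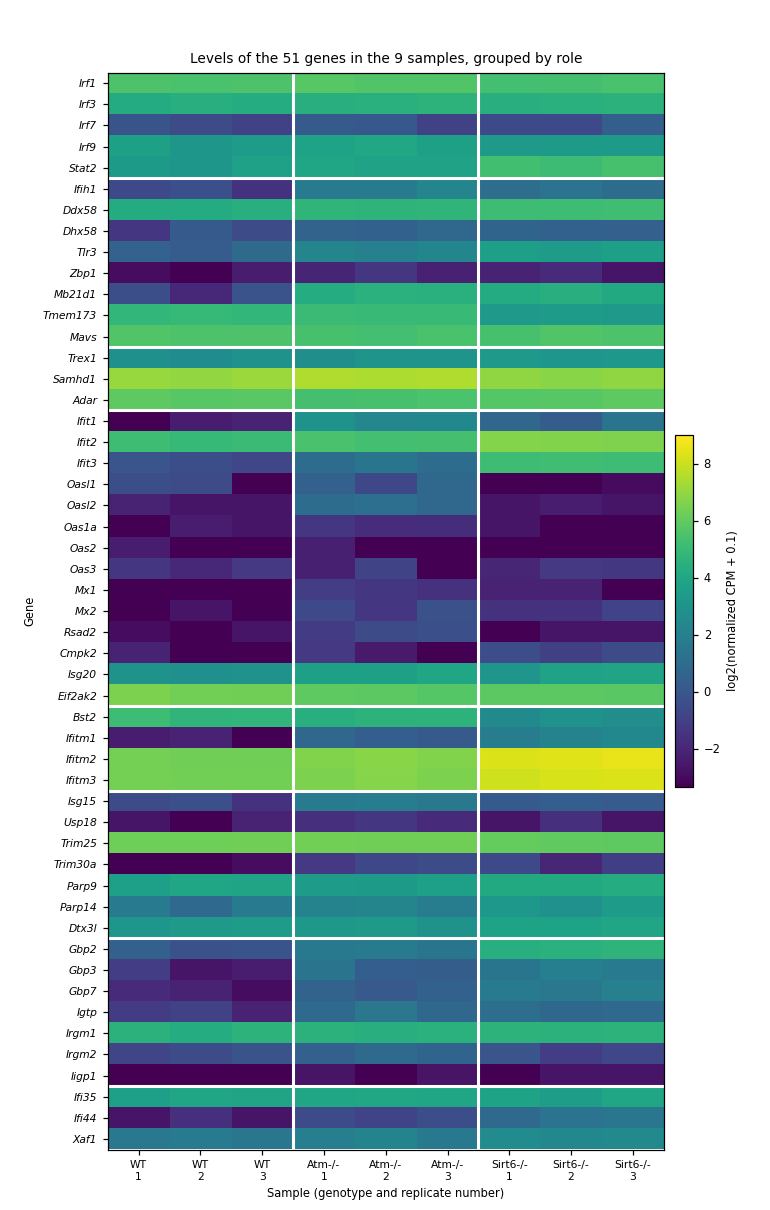
Heat map of the 51 genes (rows, grouped by role, white lines between roles) in the 9 samples (columns), coloured by log2 of normalized CPM plus 0.1. Ifitm2 and Ifitm3 are bright in every column, while Mb21d1, Ifit1, Ifit3, Gbp2, Gbp3 and Gbp7 are dark in the 3 WT columns and brighter in the 3 columns of each other genotype.

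Compared with WT, most members that could be tested were higher in both mutant genotypes, and the sizes of the changes differed by gene. In the libraries labelled Atm-/-, 29 of the 42 tested members were higher and 5 were lower (quasi-likelihood test of edgeR, p adjusted over all genes by the Benjamini-Hochberg method, threshold 0.05), where 34.7% of all 13283 tested genes were higher and 33.6% were lower. At 2-fold or more, 17 members were higher and 0 were lower, against 12.6% and 9.85% of all tested genes. The median log2 fold change of the tested members was 0.42, and that of all tested genes 0.02. In Sirt6-/-, 25 of 39 tested members were higher and 5 were lower, where 39.2% and 37.4% of 13206 tested genes were. At 2-fold or more, 19 members were higher and 2 were lower (Tmem173 and Bst2), against 17.5% and 11.8% of all tested genes, and the median was 0.94 against 0.02. Both comparisons use the same WT samples.

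Low counts limit these totals. Genes entered a test only with enough reads in at least 3 samples, and 7 of the members tested in Atm-/- and 5 of those tested in Sirt6-/- met this through the mutant samples alone, so they had to differ. These were Ifit1, Ifitm1, Gbp7 and Ifi44 in both comparisons, Oasl2, Rsad2 and Trim30a in Atm-/- and Cmpk2 in Sirt6-/-, and their p-values below support nothing beyond the reads. A further 7 members in Atm-/- and 6 in Sirt6-/- had all 3 mutant samples but only 1 or 2 WT samples over the cutoff. They were Mb21d1, Ifih1, Dhx58, Isg15, Gbp3 and Igtp in both comparisons, and Oasl1 in Atm-/-. Their WT reads alone would not have met the rule, so entry into the test leaned on the mutant samples here too. Of members with a mean of at least 1 CPM over the samples compared, which is a mean that a high mutant level can also lift, 23 of 34 were higher in Atm-/- and 5 were lower (34.4% and 35.8% of all such genes). In Sirt6-/- 21 of 33 were higher and 5 were lower (39.1% and 39.0% of all such genes). With library totals in place of TMM normalization, all genes shifted by 0.16 in Atm-/- on the log2 scale, and 64.9% instead of 50.8% of all called genes were higher. The members higher in Atm-/- then numbered 33 and those lower 2, while 6156 of all tested genes were higher and 3326 lower. With TMM, the members lower in Atm-/- numbered 3 when WT replicate 1, Atm-/- replicate 1 or Atm-/- replicate 2 was left out.

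**Figure D2:**
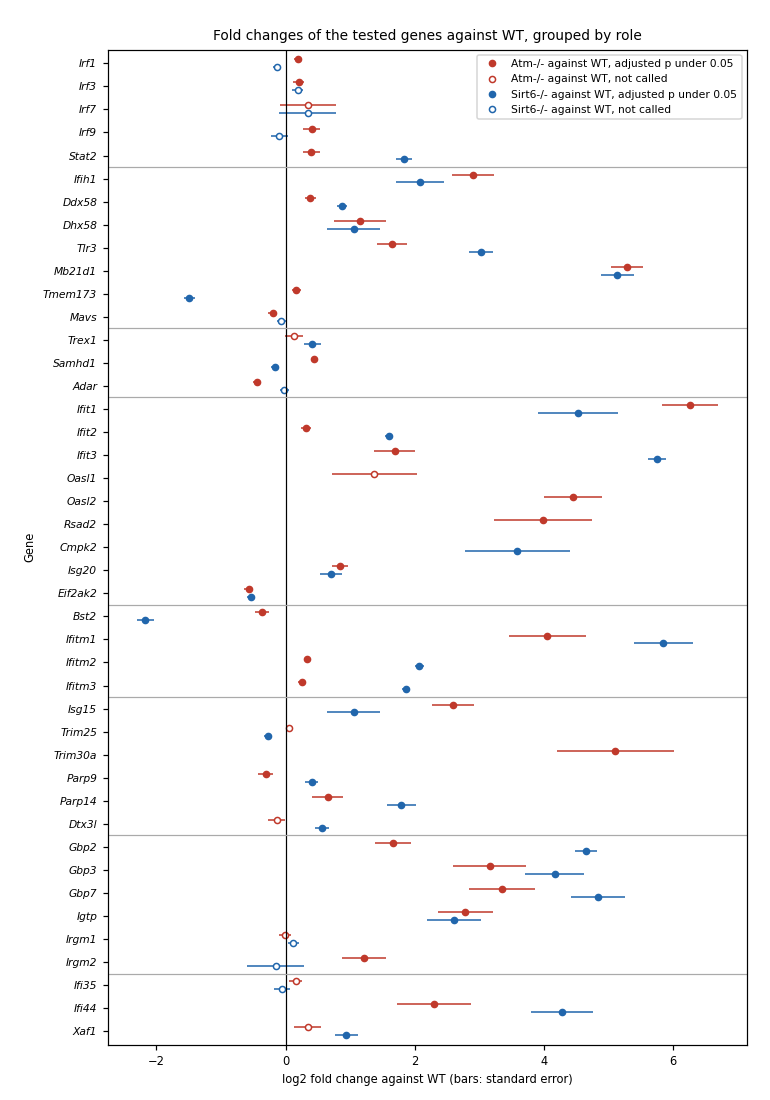
Log2 fold change against WT of every member tested in at least one comparison (points, with bars of 1 standard error), Atm-/- in red and Sirt6-/- in blue. Filled points passed an adjusted p of 0.05. Mb21d1 lies near 5 in both genotypes, Ifit3 and Gbp2 lie far to the right in blue only, and Tmem173 and Bst2 lie to the left in blue. Fitted values of members with few WT reads, such as Trim30a, depend on the prior count.

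The DNA sensor cGAS and its adaptor Sting moved differently. Mb21d1, which encodes cGAS (chromosome 9 from 78430526 to 78443237 of GRCm38, minus strand, GENCODE M21), had 22, 5 and 25 reads in the WT samples, 680, 804 and 755 in Atm-/- and 617, 702 and 588 in Sirt6-/-. Every mutant sample was thus far above every WT sample. The change was 38.9-fold in Atm-/- (log2 fold change 5.28 with standard error 0.25, adjusted p = 1.19e-10) and 35.1-fold in Sirt6-/- (5.14, standard error 0.26, adjusted p = 1.33e-10). Tmem173, which encodes Sting, had 921, 948 and 905 reads in WT, 1179, 1133 and 1108 in Atm-/- and 321, 364 and 340 in Sirt6-/-. It was 2.81-fold lower in Sirt6-/- (log2 fold change -1.49, standard error 0.09, adjusted p = 1.1e-09). Its small excess in Atm-/- (0.16, standard error 0.07, adjusted p = 0.0491) did not hold when WT replicate 1 or 3 or any one Atm-/- sample was left out (adjusted p = 0.0572 to 0.117) or with the DESeq2 Wald test (adjusted p = 0.0715). The third DNA-sensing member, Zbp1, which binds left-handed nucleic acid and can trigger cell death, had too few reads to be tested, with 1, 0 and 3 in WT, 5, 10 and 4 in Atm-/- and 4, 6 and 2 in Sirt6-/-.

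The RNA sensors Ifih1, Tlr3 and Ddx58 were higher in both genotypes. Ifih1, the sensor of long double-stranded RNA (chromosome 2 from 62595798 to 62646255), had 18, 22 and 8 reads in WT, 118, 118 and 160 in Atm-/- and 66, 80 and 65 in Sirt6-/-. The 3 genotypes did not overlap. It rose 7.47-fold in Atm-/- (log2 fold change 2.90 with standard error 0.33, adjusted p = 1.97e-06) and 4.22-fold in Sirt6-/- (2.08, standard error 0.37, adjusted p = 0.000132). Tlr3, the endosomal receptor (chromosome 8 from 45395665 to 45411080), was also ordered without overlap, with 44, 35 and 58 reads in WT, 164, 140 and 170 in Atm-/- and 400, 352 and 404 in Sirt6-/-. Its log2 fold change was 1.65 (standard error 0.23, adjusted p = 1.8e-05) in Atm-/- and 3.02 (standard error 0.18, adjusted p = 1.34e-09) in Sirt6-/-.

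Ddx58, the sensor of RNA ends with a triphosphate, was already well expressed and changed less. It had 610, 591 and 690 reads in WT, 912, 888 and 908 in Atm-/- (log2 fold change 0.38 with standard error 0.09, adjusted p = 0.00111) and 1176, 1169 and 1255 in Sirt6-/- (0.88, standard error 0.08, adjusted p = 1.29e-07). Dhx58, a helicase that modulates the other two, had 9, 32 and 20 reads in WT, 49, 46 and 55 in Atm-/- and 48, 42 and 42 in Sirt6-/-. The WT samples were all lower but spread widely. Its log2 fold changes of 1.16 (adjusted p = 0.0199) and 1.05 (adjusted p = 0.0312) were each lost without single samples: in Atm-/- without WT replicate 1 or 3 or Atm-/- replicate 3 (adjusted p = 0.0527 to 0.0829), and in Sirt6-/- without WT replicate 1 or 3 or any one Sirt6-/- sample (adjusted p = 0.0616 to 0.136), and for Sirt6-/- with the DESeq2 Wald test (adjusted p = 0.0516). Mavs, the mitochondrial adaptor of both RNA helicases, had 1600, 1477 and 1501 reads in WT, 1481, 1400 and 1502 in Atm-/- and 1380, 1602 and 1551 in Sirt6-/-. Its log2 fold change of -0.20 in Atm-/- (adjusted p = 0.0148) was not called without WT replicate 1 (adjusted p = 0.0596), without Atm-/- replicate 2 (0.0806) or with library totals (0.646), and its log2 fold change in Sirt6-/- was -0.07 (adjusted p = 0.394).

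Among the transcription factors, Stat2 stood out in Sirt6-/-. Stat2, the partner of Irf9 (chromosome 10 from 128270559 to 128292849), had 331, 280 and 408 reads in WT, 535, 475 and 466 in Atm-/- and 1260, 1112 and 1397 in Sirt6-/-. Each Sirt6-/- sample had more than the other 6. It rose 3.56-fold in Sirt6-/- (log2 fold change 1.83, standard error 0.12, adjusted p = 2.94e-09). In Atm-/- the log2 fold change was 0.40 (standard error 0.13, adjusted p = 0.0162), with an adjusted p of 0.0525 without WT replicate 2 and 0.0721 without Atm-/- replicate 1. Irf9 had 412, 286 and 342 reads in WT, 496, 580 and 436 in Atm-/- and 316, 341 and 352 in Sirt6-/-. Its log2 fold change was 0.40 in Atm-/- (adjusted p = 0.018, and 0.0543 without WT replicate 2 or 0.0885 without Atm-/- replicate 2), and -0.10 in Sirt6-/- (adjusted p = 0.53).

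Irf1, Irf3 and Irf7 had log2 fold changes below 1 in size in both genotypes. Irf1, an activator induced by interferon gamma among others, had 1489, 1372 and 1457 reads in WT, 1918, 1789 and 1712 in Atm-/- and 1304, 1341 and 1451 in Sirt6-/-. It was higher in Atm-/- by a log2 fold change of 0.19 (adjusted p = 0.0159, and 0.0631 without Atm-/- replicate 1), with -0.13 in Sirt6-/- (adjusted p = 0.0811, and 0.0352 without WT replicate 2). Irf3, which sensor kinases activate directly, had 615, 665 and 612 reads in WT, 764, 790 and 842 in Atm-/- and 700, 729 and 805 in Sirt6-/-. The log2 fold change of Irf3 was 0.20 in Atm-/- (adjusted p = 0.0495, and 0.07 with the DESeq2 Wald test or 0.0619 to 0.174 without WT replicate 1 or 3 or Atm-/- replicate 2 or 3) and 0.19 in Sirt6-/- (adjusted p = 0.0626, and 0.0441 without WT replicate 2). Irf7, which amplifies interferon production, was scarce, with 26, 19 and 14 reads in WT, 36, 33 and 14 in Atm-/- and 19, 18 and 41 in Sirt6-/-. The samples overlapped, and the log2 fold changes were 0.35 (standard error 0.43, adjusted p = 0.491) in Atm-/- and 0.34 (standard error 0.44, adjusted p = 0.491) in Sirt6-/-.

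Of the enzymes that remove or edit nucleic acid, none changed 2-fold. Samhd1, which degrades deoxynucleotides and limits viral reverse transcription, had 4354, 3945 and 4405 reads in WT, 6362, 6348 and 6196 in Atm-/- and 4101, 3623 and 4064 in Sirt6-/-. It was 1.35-fold higher in Atm-/- (log2 fold change 0.44, standard error 0.05, adjusted p = 1.79e-06). In Sirt6-/- the log2 fold change was -0.16 (adjusted p = 0.0183, and 0.0601 without WT replicate 3, 0.113 without Sirt6-/- replicate 2, or 0.269 with library totals). Adar, which converts adenosine in double-stranded RNA to inosine, had 1945, 1731 and 1789 reads in WT, 1414, 1484 and 1528 in Atm-/- and 1755, 1804 and 2042 in Sirt6-/-. It fell in Atm-/- (log2 fold change -0.44, standard error 0.07, adjusted p = 3.26e-05), with -0.02 in Sirt6-/- (adjusted p = 0.816). Trex1, the main exonuclease for cytosolic DNA, had 228, 195 and 239 reads in WT, 237, 288 and 275 in Atm-/- and 315, 284 and 315 in Sirt6-/-. It rose in Sirt6-/- (0.41, standard error 0.13, adjusted p = 0.0109), with 0.14 in Atm-/- (adjusted p = 0.405).

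**Figure D3:**
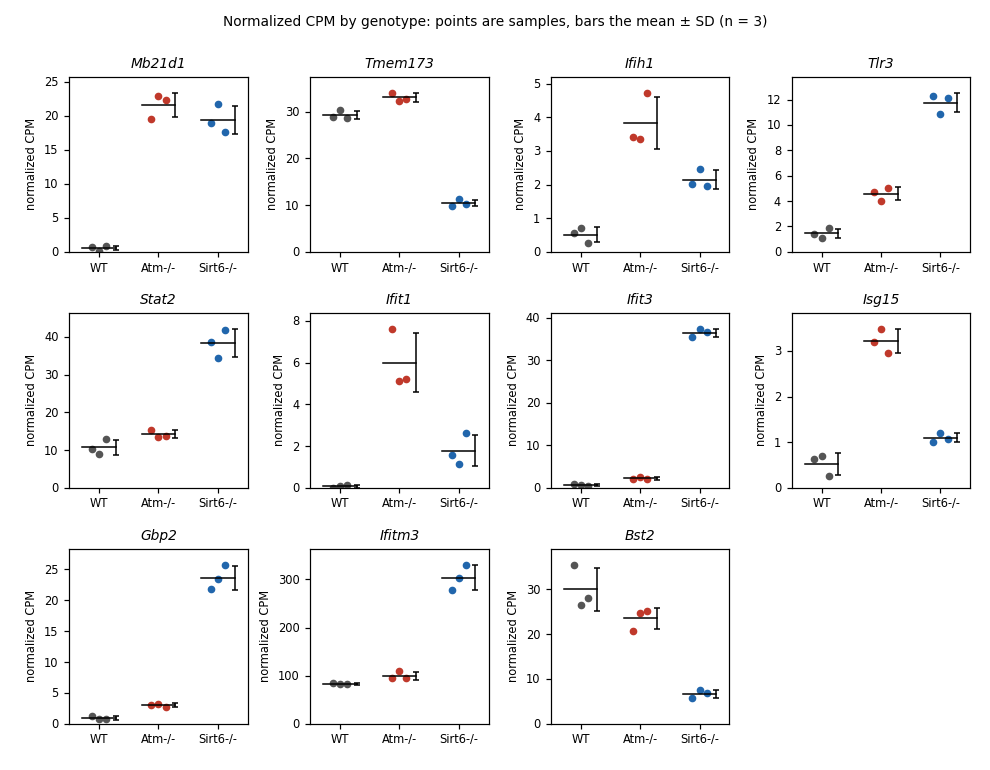
Normalized CPM of 11 members in the 9 samples, each panel with its own axis from 0. Points are samples, horizontal bars the mean and vertical bars the SD of the 3 samples. Mb21d1 is near 0.548 CPM in WT and near 20 in both other genotypes, Ifit1, Ifih1 and Isg15 are highest in Atm-/-, Ifit3, Gbp2, Ifitm3, Stat2 and Tlr3 are highest in Sirt6-/-, and Tmem173 and Bst2 are lowest in Sirt6-/-.

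The IFIT members, which encode proteins that bind foreign RNA, had unequal changes. On chromosome 19 they lie in the order Ifit2, Ifit3 and Ifit1, with gaps of 7.11 kb and 52.1 kb. Ifit1 (from 34640871 to 34650009), the IFIT protein that recognises the cap of viral RNA, had 0, 3 and 4 reads in WT, 264, 180 and 177 in Atm-/- and 52, 37 and 87 in Sirt6-/-. The log2 fold change was 6.26 (standard error 0.43, adjusted p = 8.03e-09) in Atm-/- and 4.52 (standard error 0.62, adjusted p = 9.92e-06) in Sirt6-/-, in tests that Ifit1 entered through the mutant samples alone. With so few WT reads these values depend on single samples, and without WT replicate 3 they were 6.86 and 5.11. Ifit3 (from 34583531 to 34588731), which stabilises Ifit1, showed the opposite order, with 27, 21 and 16 reads in WT, 68, 93 and 67 in Atm-/- and 1157, 1208 and 1220 in Sirt6-/-. Its change was 3.23-fold in Atm-/- (log2 fold change 1.69 with standard error 0.32, adjusted p = 0.000275) and 53.7-fold in Sirt6-/- (5.75, standard error 0.14, adjusted p = 3.99e-14). Ifit2 (from 34550694 to 34576419) was abundant in all samples, with 1132, 960 and 1077 reads in WT, 1533, 1392 and 1412 in Atm-/- (0.32, standard error 0.08, adjusted p = 0.00186) and 3390, 3320 and 3260 in Sirt6-/- (1.60, standard error 0.06, adjusted p = 1.12e-11).

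The OAS and MX families, which make a signalling nucleotide on double-stranded RNA or trap viral nucleoprotein, were mostly at or near the limit of detection. Oas1a, Oas2 and Oas3, the synthetases of that nucleotide, had at most 17 reads in any sample, and Oas2 had 0 reads in all Sirt6-/- samples. The OAS-like gene Oasl2 (chromosome 5 from 114896936 to 114912234) was raised in Atm-/-, with 4, 2 and 2 reads in WT, 67, 77 and 57 in Atm-/- (log2 fold change 4.45 with standard error 0.45, adjusted p = 6.11e-07, in a test entered through the Atm-/- samples alone) and 2, 3 and 2 in Sirt6-/-. Oasl1, which restrains Irf7 translation, had 22, 20 and 0 reads in WT, 44, 19 and 57 in Atm-/- and 0, 0 and 1 in Sirt6-/-. Its WT and Atm-/- samples overlapped (log2 fold change 1.38, adjusted p = 0.0783, and 0.0309 without WT replicate 2 or 0.0436 without Atm-/- replicate 2). The total of 42 reads in WT against 1 in Sirt6-/- gives a ratio of 43.6 with a 95% counting interval of 7.41 to 1763. Mx1 had 0 reads in all WT samples, 13, 10 and 8 in Atm-/- and 4, 4 and 0 in Sirt6-/-, so it was at least 9.45-fold and at least 2.57-fold higher than 3 reads over the WT group. Mx2 had 2 reads in WT, 54 in Atm-/- (ratio 24.7, counting interval 6.51 to 209) and 31 in Sirt6-/- (ratio 14.9, counting interval 3.80 to 129). These intervals cover counting error only.

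Rsad2 and Cmpk2 are neighbours on chromosome 12, on opposite strands and 12.8 kb apart, and encode enzymes that make and supply a chain-terminating nucleotide. Rsad2 (viperin) had 1, 0 and 2 reads in WT, 12, 22 and 24 in Atm-/- and 0, 2 and 2 in Sirt6-/-. The Atm-/- total was 17.7 times that of WT (counting interval 5.76 to 88.2, adjusted p of the fit 0.000308). Cmpk2 showed the other order, with 4, 0 and 0 reads in WT, 11, 3 and 0 in Atm-/- and 21, 13 and 20 in Sirt6-/-. The log2 fold change of Cmpk2 in Sirt6-/- was 3.59 (standard error 0.81, adjusted p = 0.00101). Without WT replicate 1 no WT read remained, and the fitted value of 7.15 then depended on the prior count. Isg20, an RNA exonuclease, was 225 to 242 reads in WT, 444 to 503 in Atm-/- (0.84, standard error 0.12, adjusted p = 1.76e-05) and 277 to 483 in Sirt6-/- (0.71, standard error 0.17, adjusted p = 0.00172). Eif2ak2 (PKR), the kinase that stops translation on sensing double-stranded RNA, was lower in both genotypes, at 86.0 ± 7.47 normalized CPM in WT, 58.2 ± 3.82 in Atm-/- (log2 fold change -0.57 with standard error 0.07, adjusted p = 4.99e-06) and 59.4 ± 0.962 in Sirt6-/- (-0.53, standard error 0.06, adjusted p = 2.86e-06; mean ± SD, n = 3).

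The 3 IFITM members, in one cluster on chromosome 7, rose most in Sirt6-/-, and Bst2 fell there. Ifitm2 (from 140954837 to 140955987) had 2768, 2544 and 2523 reads in WT, 3491, 3936 and 3453 in Atm-/- and 10472, 10865 and 12847 in Sirt6-/-. Ifitm3 (from 141009586 to 141010770) had 2712, 2573 and 2585, then 3284, 3842 and 3204, then 9054, 9798 and 11010. In Sirt6-/- they were 4.20-fold (log2 fold change 2.07 with standard error 0.07, adjusted p = 7.12e-13) and 3.66-fold higher (1.87, standard error 0.06, adjusted p = 8.7e-13), and in Atm-/- 1.26-fold (adjusted p = 0.000121) and 1.19-fold (adjusted p = 0.00204). Reads that match both of these closely related genes may have been split between them, as how such reads were counted is not given in the sources used here. Ifitm1 was almost absent in WT, with 3, 4 and 0 reads, and had 57, 42 and 35 in Atm-/- and 120, 144 and 176 in Sirt6-/-. The log2 fold change of Ifitm1 was 4.05 (adjusted p = 2.74e-05) in Atm-/- and 5.85 (adjusted p = 2.01e-08) in Sirt6-/-, and 4.66 and 6.44 without WT replicate 2. Bst2 (chromosome 8 from 71534255 to 71537456) had 1130, 831 and 881 reads in WT, 718, 864 and 849 in Atm-/- and 184, 245 and 226 in Sirt6-/-. It was 4.50-fold lower in Sirt6-/- (log2 fold change -2.17, standard error 0.13, adjusted p = 1.37e-09). In Atm-/- its log2 fold change of -0.36 (adjusted p = 0.00976) was not called with library totals (adjusted p = 0.124), without WT replicate 1 (0.067) or without Atm-/- replicate 1 (0.0702).

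The guanylate-binding members, which encode large GTPases that attack membranes around intracellular microbes, rose in both genotypes and more in Sirt6-/-. Genes of this family outside the list did not all do so, as given under other observations. Gbp7, Gbp3 and Gbp2 lie in this order on chromosome 3, with gaps of 9.88 kb and 47.4 kb. Gbp2 (from 142620602 to 142638008) had 40, 23 and 26 reads in WT, 107, 115 and 90 in Atm-/- and 713, 757 and 858 in Sirt6-/-. The 3 genotypes did not overlap, and the change was 3.18-fold in Atm-/- (log2 fold change 1.67 with standard error 0.28, adjusted p = 8.73e-05) and 25.1-fold in Sirt6-/- (4.65, standard error 0.17, adjusted p = 3.28e-12). Gbp3 had 12, 2 and 3 reads in WT, 90, 41 and 39 in Atm-/- and 86, 127 and 109 in Sirt6-/-. Its log2 fold changes were 3.16 (adjusted p = 0.000184) and 4.16 (adjusted p = 9.48e-07), and 4.29 and 5.28 without WT replicate 1. Gbp7 had 6, 4 and 1 reads in WT, 49, 34 and 44 in Atm-/- (3.35, standard error 0.52, adjusted p = 4.34e-05) and 107, 96 and 134 in Sirt6-/- (4.84, standard error 0.42, adjusted p = 8.22e-08).

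The immunity-related GTPases, smaller proteins of related function, did not move as one. Igtp (Irgm3) had 11, 13 and 4 reads in WT, 60, 100 and 55 in Atm-/- (log2 fold change 2.78 with standard error 0.43, adjusted p = 4.25e-05) and 69, 52 and 58 in Sirt6-/- (2.61, standard error 0.41, adjusted p = 4.52e-05). Irgm2 had 16, 19 and 26 reads in WT, 44, 64 and 49 in Atm-/- (1.22, standard error 0.34, adjusted p = 0.00553) and 28, 12 and 17 in Sirt6-/- (-0.15, standard error 0.44, adjusted p = 0.768). The annotated spans of these 2 genes on chromosome 11 overlap on the plus strand, so reads in the overlap may not be assigned to one of them. Irgm1, which regulates the others, was the only well-expressed gene of this group and stayed between 617 and 846 reads in all 9 samples, with log2 fold changes of -0.01 (standard error 0.10, adjusted p = 0.944) and 0.12 (standard error 0.09, adjusted p = 0.237). Iigp1, an effector GTPase, had at most 2 reads in any sample and was not tested.

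Isg15, a ubiquitin-like protein that is joined to other proteins after interferon (chromosome 4 from 156199424 to 156200818), had 20, 22 and 8 reads in WT, 111, 122 and 100 in Atm-/- and 33, 39 and 36 in Sirt6-/-. It rose 6.02-fold in Atm-/- (log2 fold change 2.59, standard error 0.33, adjusted p = 6.4e-06). In Sirt6-/- the log2 fold change of 1.05 (standard error 0.41, adjusted p = 0.031) was lost without WT replicate 3 (adjusted p = 0.14), without any one Sirt6-/- sample (0.0562 to 0.0853) and with the DESeq2 Wald test (0.0623). Usp18, the protease that removes Isg15 and dampens the interferon receptor, had at most 10 reads in any sample and was not tested. Trim30a had 1 read in WT against 51 in Atm-/- (ratio 46.6, counting interval 8.00 to 1877) and 36 in Sirt6-/- (ratio 34.7, counting interval 5.84 to 1407). Trim25, the ubiquitin ligase that activates Rig-I, was 77.6 ± 1.63 normalized CPM in WT, 81.2 ± 1.83 in Atm-/- (log2 fold change 0.06, adjusted p = 0.324, and 0.00139 with library totals) and 63.9 ± 3.06 in Sirt6-/- (-0.28, standard error 0.06, adjusted p = 0.000397).

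The PARP genes of chromosome 16, whose products modify proteins with ADP-ribose, were higher in Sirt6-/-. Parp14 had 102, 54 and 100 reads in WT, 153, 165 and 125 in Atm-/- and 310, 243 and 369 in Sirt6-/-. Its log2 fold change was 1.79 in Sirt6-/- (standard error 0.22, adjusted p = 3.68e-06) and 0.65 in Atm-/- (adjusted p = 0.0238, and 0.0675 to 0.0827 without WT replicate 2, Atm-/- replicate 1 or Atm-/- replicate 2). Parp9 and its ligase partner Dtx3l, which start back to back and whose annotated spans overlap by 682 bases on opposite strands, rose in Sirt6-/- by log2 fold changes of 0.40 (adjusted p = 0.00248) and 0.56 (adjusted p = 0.000354). Strand use in counting is not stated, so reads in the overlap cannot be assigned to one of them. In Atm-/- Parp9 had a log2 fold change of -0.31 (adjusted p = 0.0257), which was not called without WT replicate 2 or 3 or Atm-/- replicate 1 or 2 (adjusted p = 0.0671 to 0.102) or with library totals (0.266), and Dtx3l had -0.14 (adjusted p = 0.379). Of the 3 other genes, Ifi44 had 2, 7 and 2 reads in WT, 22, 16 and 23 in Atm-/- (2.30, adjusted p = 0.00273) and 58, 80 and 91 in Sirt6-/- (4.28, adjusted p = 1.1e-06), with 3.14 and 5.11 without WT replicate 2. Xaf1, which promotes apoptosis, was 0.94 higher on the log2 scale in Sirt6-/- (standard error 0.17, adjusted p = 0.000194) and had 0.34 in Atm-/- (adjusted p = 0.155, and 0.0396 with library totals). Ifi35 had log2 fold changes of 0.16 (adjusted p = 0.194, and 0.013 with library totals) and -0.05 (adjusted p = 0.707).

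Promoter sequence was examined because many of these genes are textbook targets of the complex that holds Stat2 and Irf9 and of IRF factors, which bind tandem GAAA repeats. RefSeq promoter windows of GRCm38.p6, from 250 bases before to 50 after a transcription start, were available for 41 of the 51 members. A GAAA followed after any 2 bases by another GAAA was searched on both strands, and overlapping matches were counted. They were present in 20 of the 41 members (48.8%), against 3.99% of the 27025 genes with a window and 3.44% of all 32851 windows. Of members at least 2-fold higher in Atm-/-, 11 of 16 held a match, and 9 of the 25 others did. In Sirt6-/- these numbers were 11 of 17 and 9 of 24. The members counted as higher were partly set by the low-count filter. Of those with a match, Ifit1 and Gbp7 in both comparisons and Rsad2 and Trim30a in Atm-/- entered the test through the mutant samples alone. Entry of Ifih1, Isg15, Gbp3 and Igtp, which also held a match, leaned on the mutant samples. These counts are therefore a description only. The other members include some with too few reads to be tested. Among those with a match were Oas1a and Oas3 in both comparisons, and Rsad2 and Trim30a in Sirt6-/-. Shown 5′ to 3′ along each gene's strand are the 160 bases before the start of 5 genes that rose in at least one genotype and hold the letters, of Bst2, which holds them and fell in Sirt6-/-, and of Mb21d1, which rose in both genotypes and does not hold them in this stretch. Capitals mark the matches.
Ifit1 (chr19:34640729-34640888, plus strand): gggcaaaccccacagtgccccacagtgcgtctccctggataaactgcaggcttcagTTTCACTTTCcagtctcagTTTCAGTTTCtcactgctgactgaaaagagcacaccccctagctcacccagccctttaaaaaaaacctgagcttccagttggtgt
Ifit3 (chr19:34583369-34583528, plus strand): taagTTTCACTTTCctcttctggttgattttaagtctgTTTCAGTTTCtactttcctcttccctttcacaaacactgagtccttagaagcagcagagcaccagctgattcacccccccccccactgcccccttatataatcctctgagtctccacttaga
Isg15 (chr4:156200819-156200978, minus strand): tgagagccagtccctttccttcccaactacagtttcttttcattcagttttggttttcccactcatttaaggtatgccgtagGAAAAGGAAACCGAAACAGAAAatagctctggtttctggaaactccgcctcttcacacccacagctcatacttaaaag
Gbp7 (chr3:142530176-142530335, plus strand): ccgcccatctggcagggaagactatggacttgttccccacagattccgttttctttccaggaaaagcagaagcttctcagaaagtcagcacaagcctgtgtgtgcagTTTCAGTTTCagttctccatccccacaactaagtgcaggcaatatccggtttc
Igtp (chr11:58199396-58199555, plus strand): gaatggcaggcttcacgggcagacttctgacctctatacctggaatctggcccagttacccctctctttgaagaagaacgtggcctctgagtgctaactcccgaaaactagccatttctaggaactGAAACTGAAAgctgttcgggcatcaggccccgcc
Bst2 (chr8:71537473-71537632, minus strand): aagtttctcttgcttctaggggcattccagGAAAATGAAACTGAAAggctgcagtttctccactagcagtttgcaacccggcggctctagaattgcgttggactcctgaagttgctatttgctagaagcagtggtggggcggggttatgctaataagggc
Mb21d1 (chr9:78443238-78443397, minus strand): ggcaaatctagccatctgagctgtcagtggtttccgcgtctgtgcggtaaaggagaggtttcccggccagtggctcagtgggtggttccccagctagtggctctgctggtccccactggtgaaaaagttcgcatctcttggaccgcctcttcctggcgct

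A match on the other strand reads TTTC, any 2 bases, TTTC along the gene's strand. In these stretches Ifit1 and Ifit3 each held 2 separate matches, Isg15 held 3 overlapping ones and Bst2 held 2 overlapping ones. The window of Irgm1, which was called in neither comparison, also held 2 matches, and those of Tlr3, Ifit2, Ifitm1 and Oasl2 held 0. A match is a description of letters, not a binding site or a cause, and the absence of one says only that these letters are not in the window.

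The 2 mutant genotypes were also compared directly. In Atm-/- against Sirt6-/-, 44 members were tested, of which 13 were higher in Atm-/- and 18 were lower, where 38.0% and 37.8% of 13460 tested genes were. At 2-fold or more, 8 were higher and 12 were lower, against 11.3% and 14.2% of all tested genes, and Oasl1, Oasl2 and Rsad2 had enough reads for a test in Atm-/- only, so they had to differ. The median log2 fold change was -0.00 in the members and 0.00 in all tested genes. Members higher in Atm-/- included Oasl2 (log2 fold change 4.70, standard error 0.48, adjusted p = 1.56e-08), Rsad2 (3.67, standard error 0.75, adjusted p = 0.000159), Bst2 (1.82, standard error 0.12, adjusted p = 9.61e-12), Ifit1 (1.75, standard error 0.25, adjusted p = 2.03e-06) and Tmem173 (1.67, standard error 0.08, adjusted p = 1.95e-13). Oasl1 had 120 reads in Atm-/- against 1 in Sirt6-/-, a ratio of 114 with a counting interval of 20.1 to 4536. Isg15 (1.55, adjusted p = 8.81e-06), Irgm2 (1.39, adjusted p = 0.00223), Ifih1 (0.84, adjusted p = 0.00169), Samhd1 (0.61), Irf9 (0.51), Trim25 (0.35) and Irf1 (0.34) were also higher in Atm-/-.

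Ifit3 and Gbp2 were the members furthest below Sirt6-/-. In Atm-/- they had log2 fold changes of -4.04 (standard error 0.11, adjusted p = 9.47e-18) and -2.97 (standard error 0.12, adjusted p = 5.38e-15) against Sirt6-/-. Cmpk2 was at -1.99 (adjusted p = 0.0116), but at -1.42 without Atm-/- replicate 3 (adjusted p = 0.0538) and -3.54 without Atm-/- replicate 1. Ifi44 (-1.97), Ifitm1 (-1.78), Ifitm2 (-1.72), Ifitm3 (-1.60), Gbp7 (-1.47), Stat2 (-1.42), Tlr3 (-1.35), Ifit2 (-1.27) and Parp14 (-1.12) were likewise at least 2-fold lower. Mb21d1 was close in both genotypes, at 21.6 ± 1.77 normalized CPM in Atm-/- and 19.4 ± 2.07 in Sirt6-/- (mean ± SD, n = 3). Its log2 fold change was 0.16 (standard error 0.09, adjusted p = 0.122), with 0.25 without Sirt6-/- replicate 2 (adjusted p = 0.0325) and 0.23 without Atm-/- replicate 1 (adjusted p = 0.0493). Igtp (0.19, adjusted p = 0.542), Dhx58 (0.12, adjusted p = 0.729) and Eif2ak2 (-0.02, adjusted p = 0.722) were not called.

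**Figure D4:**
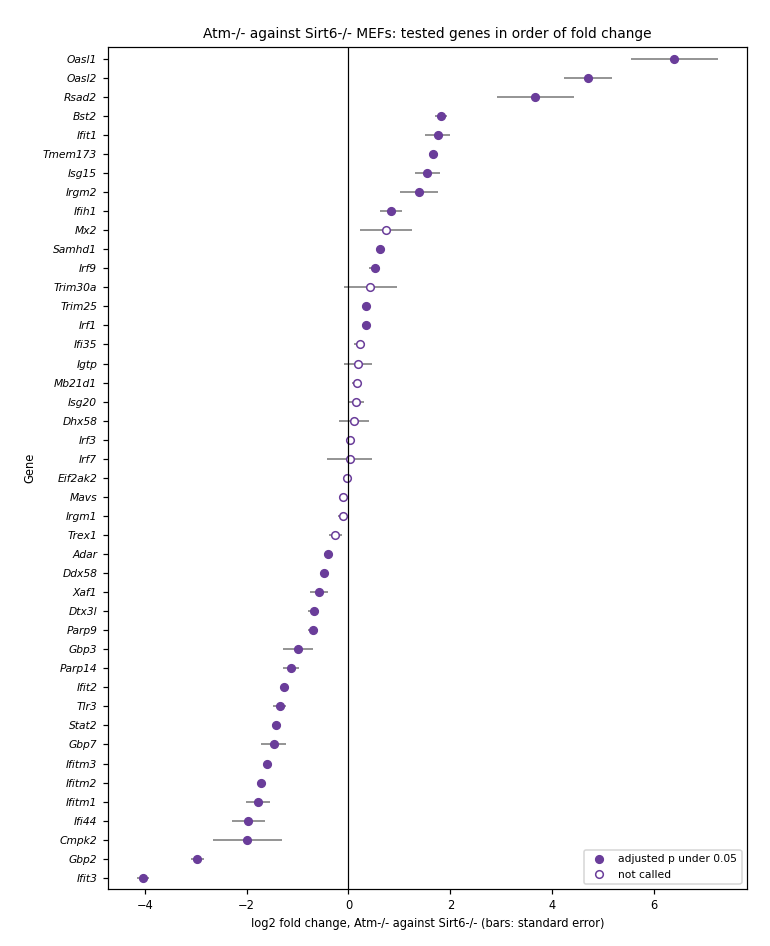
Log2 fold change of Atm-/- against Sirt6-/- for the 44 tested members in order, with bars of 1 standard error and filled points where the adjusted p was under 0.05. Oasl1, Oasl2 and Rsad2 are at the top, where Sirt6-/- had few or no reads, and Ifit3 and Gbp2 at the bottom, at -4.04 and -2.97.

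The genes upstream of these responses were taken from a separate list of 48 interferon ligands, receptors, signalling proteins and other sensors. No ligand was detectable above a few reads. Ifnb1, the main fibroblast interferon, Ifna1, Ifna2, Ifna4, Ifna5, Ifnk, Ifng, Ifnl2 and Ifnl3 had 0 reads in all 9 samples, which allows at most 3 reads or 0.0932 CPM per sample. Ifne and Ifnz had at most 4 reads in any sample. Of the 34 testable genes of this list, 5 were higher and 19 were lower in Atm-/- and 15 were higher and 12 were lower in Sirt6-/-, with median log2 fold changes of -0.28 and 0.15. Of all tested genes 34.7% were higher and 33.6% lower in Atm-/-, and 39.2% higher and 37.4% lower in Sirt6-/-, so the Sirt6-/- counts (44.1% and 35.3%) were near the background. The Atm-/- counts were 14.7% and 55.9% of the testable genes of the list. With library totals in place of TMM, 11 were higher and 15 lower in Atm-/-, while 6156 of all tested genes were higher and 3326 lower. The number higher thus moved with normalization, and the number lower remained the larger.

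Both chains of the type I interferon receptor were lower than WT in Atm-/- and higher than WT in Sirt6-/-. Ifnar1 had 3612, 3104 and 3395 reads in WT, 2414, 2374 and 2243 in Atm-/- (log2 fold change -0.66 with standard error 0.06, adjusted p = 1.37e-07) and 4910, 5104 and 5160 in Sirt6-/- (0.53, standard error 0.05, adjusted p = 4.01e-07). Ifnar2 had 2071, 1855 and 1950 reads in WT, 1277, 1368 and 1209 in Atm-/- (-0.75, standard error 0.06, adjusted p = 1.1e-07) and 3128, 3252 and 3132 in Sirt6-/- (0.64, standard error 0.06, adjusted p = 7.69e-08). For both genes every Atm-/- sample was below and every Sirt6-/- sample above all WT samples, and the direct comparison gave -1.18 (adjusted p = 2.02e-15) and -1.37 (adjusted p = 3.79e-15). Ifngr2, a chain of the interferon gamma receptor, had 2668, 1888 and 2668 reads in WT, 1412, 1445 and 1400 in Atm-/- (-0.90, adjusted p = 2.01e-06) and 2655, 2970 and 2839 in Sirt6-/- (0.18, adjusted p = 0.123, and 0.0474 without WT replicate 3). Tyk2, the kinase bound to Ifnar1, had 638, 593 and 582 reads in WT, 542, 616 and 527 in Atm-/- and 1238, 1254 and 1398 in Sirt6-/-. Tyk2 rose 2.07-fold in Sirt6-/- (1.05, adjusted p = 9.49e-09), while its -0.24 in Atm-/- (adjusted p = 0.0308) was not called without WT replicate 1, Atm-/- replicate 1 or Atm-/- replicate 3 (0.0959 to 0.112), with library totals (0.46) or with the DESeq2 Wald test (0.0554).

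Irf5, a factor that acts after endosomal sensors, had 1154, 1211 and 1133 reads in WT, 107, 115 and 133 in Atm-/- (log2 fold change -3.44 with standard error 0.11, adjusted p = 1.38e-12) and 174, 223 and 255 in Sirt6-/- (-2.48, standard error 0.11, adjusted p = 4.86e-11). Of the feedback inhibitors, Socs1, which blocks Jak kinases, had 10, 34 and 29 reads in WT, 111, 169 and 162 in Atm-/- (2.45, standard error 0.34, adjusted p = 1.55e-05) and 222, 162 and 199 in Sirt6-/- (2.94, standard error 0.31, adjusted p = 7.25e-07). The phosphatase Ptpn6 had 208, 142 and 229 reads in WT, 121, 170 and 117 in Atm-/- and 12, 16 and 29 in Sirt6-/- (-3.39, standard error 0.31, adjusted p = 1.11e-07). Its -0.64 in Atm-/- (adjusted p = 0.012) was not called without WT replicate 3 or Atm-/- replicate 1 or 3 (adjusted p = 0.0543 to 0.0675). The Stat inhibitor Pias1 had 1299, 1335 and 1326 reads in WT, 1136, 1178 and 1111 in Atm-/- (-0.35, adjusted p = 0.000242) and 2420, 2507 and 2692 in Sirt6-/- (0.89, adjusted p = 3.3e-09).

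Of 5 testable sensors outside the 51 genes, 1 was higher and 3 were lower in Atm-/-, and 1 was higher and 4 were lower in Sirt6-/-. With 34.7% and 33.6% of all tested genes called higher and lower in Atm-/- and 39.2% and 37.4% in Sirt6-/-, counts over 5 genes are given as a description. Tlr7, the endosomal receptor of single-stranded RNA, had 550, 435 and 478 reads in WT, 193, 181 and 164 in Atm-/- (log2 fold change -1.58 with standard error 0.13, adjusted p = 5.41e-08) and 6, 4 and 4 in Sirt6-/- (-6.72, standard error 0.23, adjusted p = 1.96e-12). Lrrfip1, which binds both RNA and DNA, had 10587, 9433 and 10171 reads in WT, 6376, 6020 and 6086 in Atm-/- (-0.84, adjusted p = 1.28e-09) and 2632, 2874 and 2652 in Sirt6-/- (-1.94, adjusted p = 2.68e-13). Ddx41, a helicase reported to sense DNA, was the exception, with 713, 694 and 726 reads in WT, 1874, 1989 and 1833 in Atm-/- (1.28, adjusted p = 3.1e-10) and 1337, 1372 and 1358 in Sirt6-/- (0.88, adjusted p = 2.2e-08). The kinase Ikbke, which acts beside Tbk1, had 341, 250 and 306 reads in WT, 171, 177 and 151 in Atm-/- (-0.98, adjusted p = 3.76e-05) and 481, 588 and 536 in Sirt6-/- (0.79, adjusted p = 5.5e-05).

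**Figure D5:**
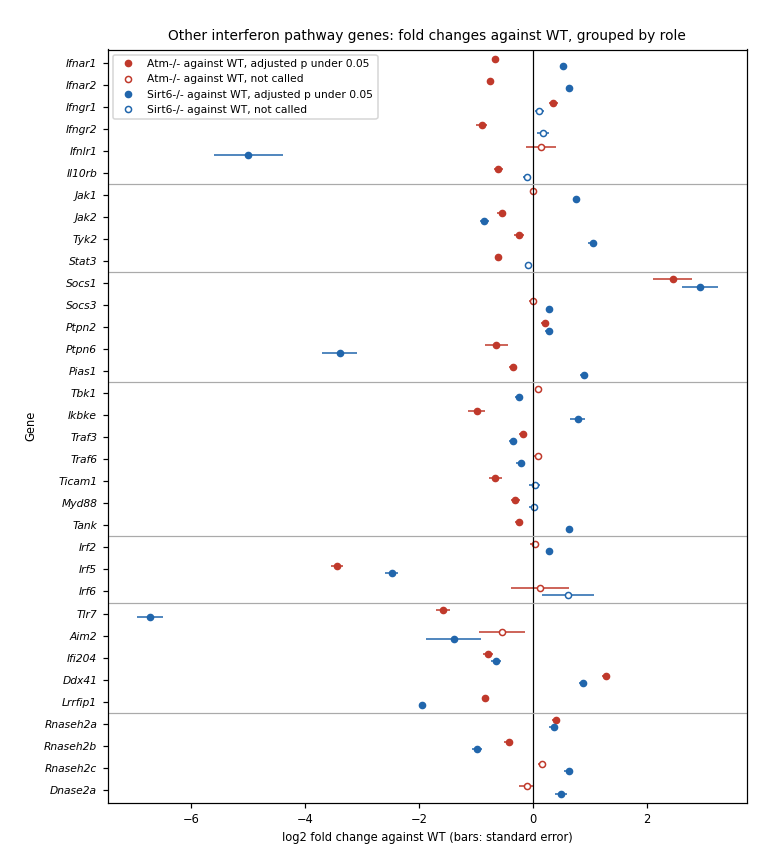
Log2 fold change against WT of the 34 testable upstream genes, with bars of 1 standard error, Atm-/- in red and Sirt6-/- in blue, filled where the adjusted p was under 0.05. Ifnar1 and Ifnar2 both lie left of 0 in Atm-/- and right of 0 in Sirt6-/-, Irf5 lies to the left in both genotypes, and Tlr7 reaches -6.72 in Sirt6-/-.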

How the data were processed

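RNA-Seq of 9 MEF samples was used, grouped by the genotype in the labels. The labels describe oligo(dT) selection, random priming and Illumina libraries, and the submitters' processing notes name mm10. The aligner, counting tool and strand setting are not given in the sources used here. The authors deposited read counts per gene, which are whole numbers without normalization, and RPKM made from them by transcript length and read total. Neither file type lets reads shared by related or overlapping genes be traced.

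Each pair of genotypes was fitted on the counts of all genes with edgeR 4.0.16 (R 4.3.3): filterByExpr by genotype, TMM, glmQLFit with a prior count of 0.125 and glmQLFTest, two-sided, with Benjamini-Hochberg adjustment over all tested genes and a threshold of 0.05. Standard errors come from the F statistic, and normalized CPM use TMM. RPKM served to compare levels between genes and to describe how many members were at low levels, and no change between genotypes was tested on it. Ratios of totals with 1 to 3 reads in a group have exact 95% counting intervals, and a total of 0 was set to 3 reads over the group. Depth was 32187040 to 33837949 reads per sample. The fit was tested on simulated counts.

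Some upstream genes are not reported here. The members and gene lists were chosen with earlier results of these data known. All 51 genes are named or counted. Reads per sample are given for sensors and adaptors, transcription factors and nucleic acid removal genes, for genes with an adjusted p under 0.05, at least 2-fold change and a mean of at least 1 CPM over the samples compared, and for upstream genes that met the same rule plus Ifnar1, Ifnar2 and Ifnb1. Oasl1, Mx1, Mx2, Cmpk2, Rsad2, Oas1a, Oas2 and Oas3 are shown for their low counts. Alternatives were DESeq2 1.42.0 (Wald test, and its size factors in edgeR), library totals, 2 other count filters, 1 fit of all 9 samples, a block for the replicate number, leaving out single samples, a 2-fold threshold and a prior count of 2. Positions come from GENCODE M21, promoter sequences from RefSeq on GRCm38.p6.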

Additional observations from a re-analysis of the deposited data

How the results depend on the processing

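No result changed direction under any alternative while called. Requiring at least 10 reads in every sample left 16 members higher in Atm-/- than WT and 15 higher in Sirt6-/- than WT, because fewer members were tested. The shares of all genes called under that filter and in fits without 1 sample are not given, so those counts have no background here. A 2-fold threshold gave 17 members higher and 0 lower in Atm-/-, 2 members lower in Sirt6-/- and 8 members higher in Atm-/- than in Sirt6-/-. For upstream genes it gave 2 higher and 2 lower in Atm-/-, 2 higher and 6 lower in Sirt6-/-, and 4 higher and 6 lower in Atm-/- against Sirt6-/-. In the same order, 12.6% and 9.85%, 17.5% and 11.8%, and 11.3% and 14.2% of all tested genes were higher and lower at this threshold. Library totals gave 33 members higher and 2 lower in Atm-/-, and 11 upstream genes higher and 15 lower there. Leaving out 1 sample gave 25 to 28 members higher and 3 to 5 lower in Atm-/-, 23 to 27 higher and 5 to 6 lower in Sirt6-/-, and 13 to 14 higher and 17 to 19 lower in Atm-/- against Sirt6-/-. A fit with the replicate block gave 27 members higher and 5 lower in Atm-/-, 25 and 5 in Sirt6-/-, and 13 and 18 in the direct comparison; it and the fit without a filter on low counts no longer called Irf3 (adjusted p = 0.0689 and 0.0665) and Tmem173 (0.0777 and 0.0804) in Atm-/-, nor did the DESeq2 Wald test (0.07 and 0.0715). Library totals added calls of Irf3 (adjusted p = 0.00913) and Irgm1 (0.0491) in Sirt6-/- and of Mb21d1 (0.0384) in the direct comparison. Deviations of samples with the same number had correlations of -0.0273 to 0.102, and those of samples with different numbers -0.122 to 0.0827. These values do not show whether samples with the same number were prepared together. With a prior count of 2, fitted log2 fold changes of members with few reads fell, for Ifit1 in Atm-/- from 6.26 to 5.49 and for Ifitm1 in Sirt6-/- from 5.85 to 5.06. The limit is depth for genes below about 3 reads per sample, and 3 samples per genotype.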

Other observations

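Further genes of the same families, taken by symbol from the count tables after the 51 genes had been examined, gave 34 genes, 24 of them with at least 10 reads in some sample. Of 18 tested in each comparison, 7 were higher and 7 lower in Atm-/-, and 11 were higher and 6 lower in Sirt6-/- than in WT (of all tested genes, 34.7% and 33.6%, and 39.2% and 37.4%). Gbp10, Gbp6 and Oas1b in both comparisons, Gbp9 and Ifi205 in Atm-/- and Ifitm6 in Sirt6-/- had fewer than 10 reads in every WT sample. They entered the test through the mutant samples alone, and Ifi27l2b entered that of Sirt6-/- through WT alone. These genes had to differ, and their p-values support nothing beyond the reads. Of 20 tested in Atm-/- against Sirt6-/-, 6 were higher and 8 lower (38.0% and 37.8%). Ifi205, Ifi27l2b, Ifitm5 and Ifitm6 entered that test through 1 genotype alone. The genes named here were chosen after their values were seen, and families were mixed. Gbp2b, next of kin to Gbp2, had 11, 14 and 18 reads in WT, 65, 50 and 73 in Atm-/- (log2 fold change 1.98, standard error 0.35) and 424, 252 and 405 in Sirt6-/- (4.58, standard error 0.27), and reads of the 2 paralogs may be mixed. Gbp9 instead had 9, 4 and 7 reads in WT, 18, 29 and 23 in Atm-/- (1.65, adjusted p = 0.00701) and 11, 2 and 6 in Sirt6-/-, and Gbp6 was at 2.78 in Atm-/- and 2.99 in Sirt6-/-. Oas1b was at 3.23 and 3.50 with at most 38 reads in any sample. The GTPase Ifi47 rose in Sirt6-/- (46, 37 and 35 reads in WT against 293, 197 and 377, log2 fold change 2.82, adjusted p = 7.7e-08) and had 52, 50 and 36 reads in Atm-/- (0.09, adjusted p = 0.812). Ifitm6 had 2, 0 and 3 reads in WT, 1, 9 and 0 in Atm-/- and 86, 133 and 142 in Sirt6-/- (6.02, adjusted p = 5.28e-08), while Ifitm10 fell in both (-1.61, adjusted p = 0.000241, and -2.33, adjusted p = 2.36e-05). The T cell-specific GTPases went the other way in Sirt6-/-: Tgtp2 fell from 50, 55 and 45 reads in WT to 11, 9 and 14 (-2.18, adjusted p = 8.11e-05).

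Some genes named for interferon induction were lower in both genotypes. Ifi27l2b had 457, 510 and 357 reads in WT, 32, 34 and 30 in Atm-/- (log2 fold change -3.92, standard error 0.19) and 0, 2 and 0 in Sirt6-/-. Ifi30, a lysosomal thiol reductase, had 3229, 2772 and 3074 reads in WT, 1269, 1208 and 1148 in Atm-/- (-1.46, adjusted p = 6.41e-11) and 713, 762 and 753 in Sirt6-/- (-2.08, adjusted p = 1.02e-12).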
